A study of Mus musculus with 27 samples.

Results

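Cdh1, Epcam and Esrp1 are 3 genes of epithelial cells, and their histone marks were followed here through the reprogramming of mouse embryonic fibroblasts (MEF). Cdh1 encodes E-cadherin, the calcium-dependent adhesion protein of adherens junctions. Epcam encodes a membrane glycoprotein of epithelial cell contacts that is also abundant on embryonic stem (ES) cells. Esrp1 encodes an RNA-binding protein that sets the epithelial form of alternative splicing. Members were chosen as every deposited peak that overlapped 1 of 3 windows on the mouse build mm9, whatever its height: chr8:109120000-109196000 for Cdh1, chr17:88028000-88052000 for Epcam and chr4:11257000-11322000 for Esrp1. The windows held 75 of the 234651 peaks in 19 peak lists, with 30 at Cdh1, 13 at Epcam and 32 at Esrp1.

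The study mapped trimethylated lysine 4 of histone H3 (H3K4me3), trimethylated lysine 27 (H3K27me3) and the demethylase UTX by chromatin immunoprecipitation and sequencing. Wild-type fibroblasts (WT MEF, Utx+/Y) and knockout fibroblasts (Utx-KO MEF, Utx-/Y) were both of the V19-OSKM strain, in which doxycycline (dox) switches on the reprogramming factors Oct4, Sox2, Klf4 and c-Myc, and each was taken with and without dox. ES cells (ESC) were V6.5 cells of both genotypes, WT ESC (Utx+/Y) and Utx-KO ESC (Utx-/Y). Further samples were 2 clones of Utx-KO V19-OSKM cells that had reprogrammed improperly, called aberrant iPS cells, without dox. All fibroblasts and ES cells were grown in 2i/LIF medium. H3K4me3 and H3K27me3 were each mapped in all 8 of these cell populations and UTX in WT MEF, WT MEF with dox and WT ESC. How long dox was given is not stated in the labels used here, and fibroblasts under dox were analysed as a whole culture.

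A shift from a mesenchymal to an epithelial state is an early step of fibroblast reprogramming, and Cdh1, Epcam and Esrp1 are standard genes of that shift. Fibroblasts keep such genes silent, in part through Snail and Zeb repressors that bind E-box letters in their promoters. H3K4me3 marks promoters that are active or poised, H3K27me3 marks chromatin under Polycomb repression, and UTX (also called KDM6A) removes H3K27me3.

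Each population had 1 library per antibody, so no difference between populations has a replicate check and none was tested. The lists differed in length. H3K4me3 lists held 16157 to 28232 peaks, and H3K27me3 lists held 135 in iPS clone 1, 737 in iPS clone 2, 938 in WT MEF with dox, 4335 to 5708 in 4 other populations and 36231 in Utx-KO ESC. Read totals were not used here, so depth is unknown. An empty window in a short H3K27me3 list therefore does not show that the mark was absent. Peak scores, written by the authors' peak caller, start at 50 and are used only to place a peak within its own list. The windows could not be set against an mm9 annotation, and the labelled cell types were for the same reason not checked against their marker genes. Gene lengths in RefSeq (GRCm38) are 66.9 kb for Cdh1, 15.1 kb for Epcam and 54.9 kb for Esrp1, which leaves 9.10, 8.85 and 10.1 kb of each window outside the gene. The widest WT ESC H3K4me3 peak began 6.47 kb from the low end of the Cdh1 window and 7.01 kb from that of Epcam, and it ended 5.66 kb from the high end of the Esrp1 window. These are the ends where a start site would lie for genes read upward (Cdh1, Epcam) and downward (Esrp1). For the counts, all overlapping H3K4me3 peaks of the 8 lists were merged into 33646 regions, and the region of each window with the most H3K4me3 in WT ESC is called its main region.

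Cdh1 carried a narrow H3K4me3 peak in both untreated fibroblast cultures and longer H3K4me3 in all other populations. In iPS clone 1 this length was made up of separate peaks, the widest of 2564 bp. The main region spanned chr8:109125699-109131992. H3K4me3 covered 678 bp of it in WT MEF and 397 bp in Utx-KO MEF. With dox it covered 5931 bp in WT MEF and 3868 bp in Utx-KO MEF. It covered 5119 bp in WT ESC, 2983 bp in Utx-KO ESC, 3802 bp in iPS clone 1 and 5537 bp in iPS clone 2. The 2 untreated fibroblast values were thus the lowest of the 8, and all others were at least 2983 bp. The WT MEF peak with dox, chr8:109126062-109131992, was wider than 97.0% of the peaks in its list and scored 3100. Across the 8 lists 16692 H3K4me3 peaks scored 3100 or more, so order within that range was not read. The narrow WT MEF peak was wider than 21.3% of its list.

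H3K4me3 domains were longer with dox across the genome, and the Cdh1 ratio stood near the far end of that spread. Of regions with H3K4me3 in both WT MEF lists, 12520 in number, the median covered length with dox was 1.69 times that without (upper quartile 2.25), and the Cdh1 ratio was 8.75, higher than 99.7% of them. In Utx-KO MEF the median ratio was 2.14 over 12959 regions (quartiles 1.74 and 2.89). The Cdh1 ratio was 9.74, higher than 99.5% of the regions. Both genotypes therefore had a wide Cdh1 domain under dox relative to the narrow starting peak. The starting lengths behind these ratios, 678 and 397 bp, are each a single narrow peak.

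Inside the Cdh1 gene, beyond the main region, H3K4me3 also lay at a pair of places that WT MEF with dox shared with WT ESC. The first, chr8:109140041-109145719, held peaks in 5 of the 8 lists: WT MEF with dox, both ESC lists and both iPS clones. The second, chr8:109155487-109158431, held peaks in WT MEF with dox, WT ESC and iPS clone 2. Utx-KO MEF with dox had no H3K4me3 peak at either place, and no untreated fibroblast list had one. Across all regions with H3K4me3 in WT ESC and WT MEF with dox, 92.7% had it in Utx-KO MEF with dox. That Utx-KO list was the shortest for H3K4me3, with 16157 peaks against 19689 in WT MEF with dox. In WT MEF with dox these peaks scored 61.07 and 174.2 at the first place and 387.77 at the second, which was higher than 4.50% to 35.7% of the scores in that list. H3K4me3 over the whole Cdh1 window thus came to 11.6 kb in WT MEF with dox, close to the 11.0 kb of WT ESC. It came to 3.87 kb in Utx-KO MEF with dox, and Utx-KO ESC had 5.07 kb. Clones 1 and 2 had 7.88 and 16.7 kb (mean 12.3 ± 6.23 kb, SD, n = 2), so the clones, which are Utx-KO too, lay on both sides of the WT ESC value.

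H3K27me3 at Cdh1 was found in untreated fibroblasts of both genotypes and, under dox, in Utx-KO cells only. The WT MEF peak, chr8:109126560-109127826 (1267 bp, score 249.22), contained the whole 678 bp H3K4me3 peak of the same cells. In Utx-KO MEF a peak of 628 bp (score 100.8) lay 307 bp beyond the H3K4me3 peak. It was a weak peak, at rank 5203 of 5708 by score. With equal numbers of top-scoring peaks from both untreated MEF lists it was not counted. With dox the WT list had no peak in the window. Utx-KO MEF with dox had a peak of 3277 bp, chr8:109126137-109129413 (score 347.63), at rank 393 of 4335 by score. All of it lay within the 3868 bp H3K4me3 peak, so that 84.7% of the Cdh1 H3K4me3 stretch in these cells carried both marks. In a culture of mixed cells, both marks on the same chromosomes and each mark in different cells cannot be told apart.

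Neither ESC list had an H3K27me3 peak in the Cdh1 window. The Utx-KO ESC list held 36231 peaks, but only 25.1% of all H3K4me3 peaks of those cells met one. For WT ESC the share was 7.01%, so H3K4me3 peaks without H3K27me3 were the usual case in ESC of either genotype. The only H3K27me3 peak of an iPS clone in any of the windows was chr8:109169426-109170209 in clone 2 (score 169.04), 11697 bp from the nearest H3K4me3 peak of that clone, and no other list had a peak there.

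**Figure D1:**
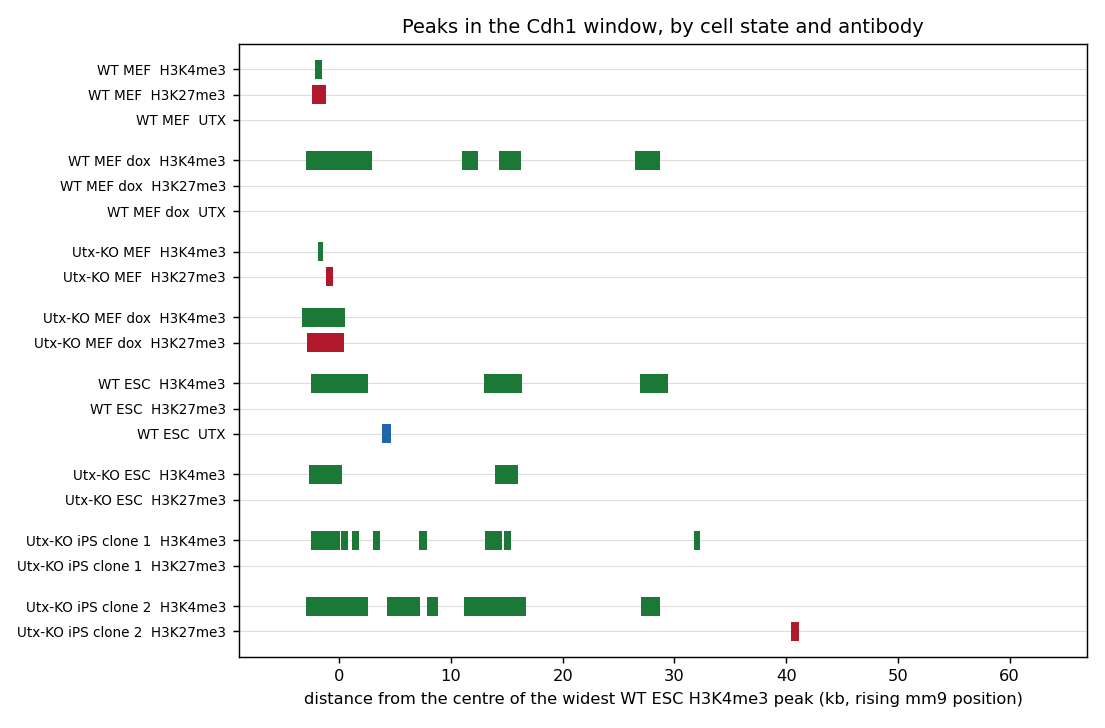
Each bar is a deposited peak in the Cdh1 window, placed by its distance in kb from the centre of the widest WT ESC H3K4me3 peak; rows are the 19 lists, with H3K4me3 in green, H3K27me3 in red and UTX in blue. H3K4me3 is narrow in both untreated MEF rows, H3K27me3 lies on the broad peak in Utx-KO MEF with dox (3277 bp), and the peaks further inside the gene are missing from that population.

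Epcam had H3K27me3 in the fewest lists, 2 of 8, against 4 at Cdh1 and 5 at Esrp1. RefSeq promoter sequences were matched by symbol for 1 of the 3 genes, Epcam, and not for Cdh1 or Esrp1. The 250 bases before the Epcam start are shown because 2 E-boxes of the kind Snail and Zeb proteins bind (CACCTG, or CAGGTG where it lies on the other strand) stand in them, printed in capitals. The build is GRCm38.p6, plus strand, and its positions cannot be set against the mm9 peaks.
Epcam promoter, chr17:87635729-87635978: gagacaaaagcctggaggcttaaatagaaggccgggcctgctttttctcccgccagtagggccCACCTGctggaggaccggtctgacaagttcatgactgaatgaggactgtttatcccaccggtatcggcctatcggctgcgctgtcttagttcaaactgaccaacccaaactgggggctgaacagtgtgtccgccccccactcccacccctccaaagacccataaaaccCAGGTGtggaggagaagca

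The matches begin 187 and 19 bases before the start. Of 32851 promoter windows of this length in the table, 17.2% held CACCTG on either strand and 2.06% held it at least 2 times. Both Epcam matches are also the only matches of the wider E-box letters CANNTG, which 66.2% of promoters held. Among 30 further epithelial genes, such as Krt8 and Krt18 (keratins), Cldn4 and Cldn7 (claudins of tight junctions) and Ocln (occludin), 19 had a promoter in the table. CACCTG stood in a promoter of 12 of these 19 genes (63.2%), against 19.4% of the 27025 genes of the table. Those named above all had it, whereas Grhl1, Ovol2, Cldn3, Dsp, Spint1, Marveld2 and Lad1 did not. The CpG content of the Epcam promoter was ordinary, with 8 CpG and an observed to expected ratio of 0.405, higher than 52.6% of promoters (median 0.373). A match of letters is a description of the window and not a measured binding site.

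At Epcam, H3K4me3 was found under dox in both genotypes and, without dox, as a small peak in Utx-KO MEF alone. The main region spanned chr17:88034778-88038827. H3K4me3 covered 0 bp of it in WT MEF, 498 bp in Utx-KO MEF, 2433 bp in WT MEF with dox and 2190 bp in Utx-KO MEF with dox. It covered 2365 bp in WT ESC, 1926 bp in Utx-KO ESC, 2577 bp in iPS clone 1 and 3932 bp in iPS clone 2. With dox, the Utx-KO value lay between the ESC values and the WT value just above them, and both lay below the clones. The Utx-KO MEF peak, chr17:88035443-88035940, scored 187.99, higher than 35.8% of its list. In iPS clone 2 the peak scored 3230.05, inside the range of 3100 and above.

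H3K27me3 at Epcam was found only in Utx-KO populations, in 2 of the 5 Utx-KO lists. Utx-KO MEF with dox had a peak of 823 bp, chr17:88035718-88036540, which lay inside the H3K4me3 peak and covered 37.6% of it. Its score of 72.29 put it at rank 2513 of 4335, so it was a weak peak of its list. At a score of at least 100 it was not counted. Utx-KO ESC had 3 peaks, of 1311, 2318 and 1543 bp (scores 105.61, 123.43 and 221.69). The second of them overlapped the H3K4me3 peak of the same cells by 1093 bp. No fibroblast list without dox had H3K27me3 in the Epcam window, whereas both such lists had it at Cdh1 and at Esrp1.

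**Figure D2:**
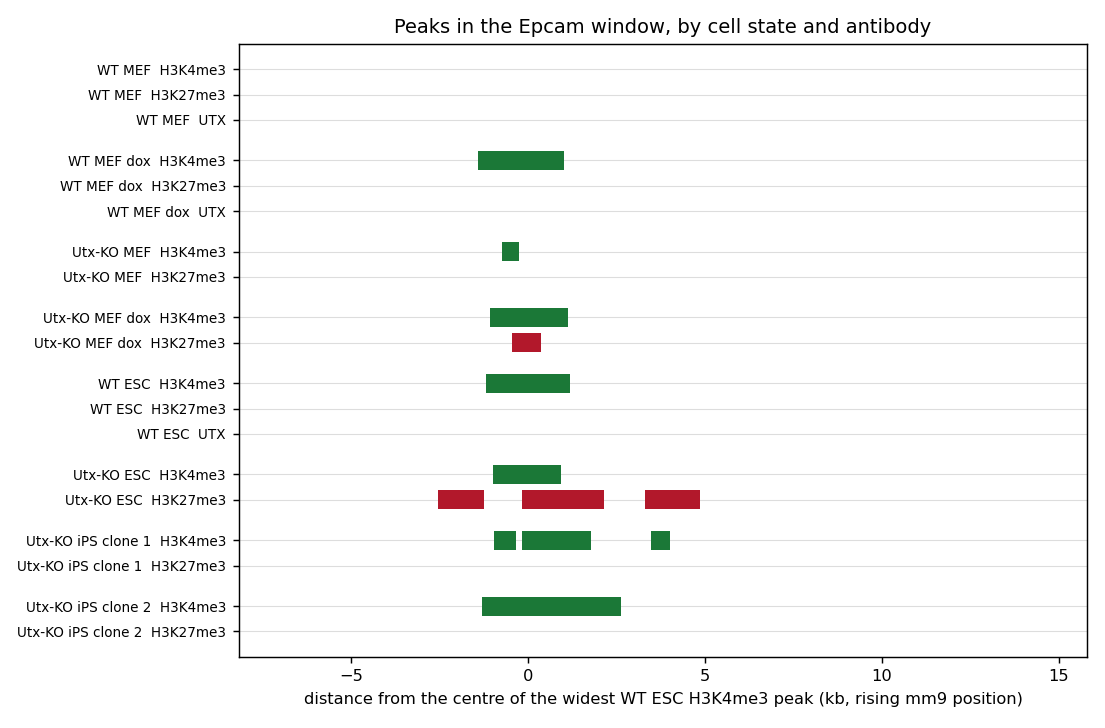
Peaks in the Epcam window, drawn as distance in kb from the centre of the WT ESC H3K4me3 peak; rows are the 19 lists, with H3K4me3 in green, H3K27me3 in red and UTX in blue. WT MEF has no peak of any kind, and red bars stand only in Utx-KO MEF with dox (823 bp) and Utx-KO ESC (3 peaks).

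Esrp1 had the most H3K27me3 of the 3 genes and no H3K4me3 in untreated fibroblasts. H3K4me3 covered 0 bp of the main region, chr4:11311514-11316716, in WT MEF and in Utx-KO MEF. With dox it covered 4800 bp in WT MEF and 1856 bp in Utx-KO MEF. It covered 2312 bp in WT ESC, 1511 bp in Utx-KO ESC, 4744 bp in iPS clone 1 and 5000 bp in iPS clone 2. The 3 largest values were those of WT MEF with dox and both iPS clones, all at least 2.05 times that of WT ESC. The WT MEF peak with dox scored 1643.38, higher than 66.8% of its list, and the Utx-KO peak with dox scored 113.26, higher than 11.5% of its list.

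H3K27me3 peaks in the Esrp1 window numbered 8 in Utx-KO ESC, 2 in WT ESC and 5 each in WT MEF, Utx-KO MEF and dox-treated Utx-KO MEF, and the lists of WT MEF with dox and both iPS clones had none. Utx-KO ESC had the longest cover, at 22.1 kb, followed by dox-treated Utx-KO MEF at 8.09 kb, WT MEF at 5.04 kb, Utx-KO MEF at 3.92 kb and WT ESC at 3.11 kb. In both untreated fibroblast cultures the highest scoring peak lay across the upper end of the main region: chr4:11316273-11317966 in WT MEF (score 382.58, rank 289 of 4760) and chr4:11315726-11316945 in Utx-KO MEF (335.37, rank 350 of 5708). RefSeq places the non-coding gene Gm35631 0.349 kb beyond that end of Esrp1, so these peaks may not belong to Esrp1 alone. Which end of Gm35631 faces Esrp1 is not given here. In Utx-KO ESC a single H3K27me3 peak of 11643 bp, chr4:11309740-11321382 (score 2170.5, rank 99 of 36231), covered all 5203 bp of the main region.

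At Esrp1 the H3K4me3 that WT cells had and Utx-KO cells lacked lay wholly under H3K27me3 of the Utx-KO cells. Under dox, 2944 bp of the WT H3K4me3 stretch had no H3K4me3 in Utx-KO MEF, and all 2944 bp carried H3K27me3 there. In ESC the corresponding stretch was 801 bp, again all under H3K27me3 of the Utx-KO list. Of the H3K4me3 that Utx-KO cells did have, 98.1% under dox and 100% in ESC also carried H3K27me3. H3K27me3 of the Utx-KO cells covered 5167 of the 5203 bp of this main region under dox, and all of it in ESC. Almost any stretch there would therefore lie under it. No such share was computed over all regions. In WT ESC the marks lay side by side instead, with H3K27me3 peaks at chr4:11311398-11313671 and chr4:11316374-11317208 flanking the H3K4me3 peak chr4:11314032-11316343, at a smallest gap of 30 bp. At Cdh1 the WT stretch without H3K4me3 in Utx-KO MEF with dox measured 2426 bp and none of it carried H3K27me3. At Epcam it was 339 bp, also without H3K27me3. At both genes the H3K27me3 peak of these cells lay wholly inside their H3K4me3 peak, so no other outcome was possible. The difference from Esrp1 is therefore one of where the H3K27me3 peaks ended. In ESC the stretch measured 2335 bp at Cdh1, where the Utx-KO list had no H3K27me3 peak in the window. At Epcam it measured 439 bp, of which 253 bp (57.6%) lay under H3K27me3 of the Utx-KO list.

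**Figure D3:**
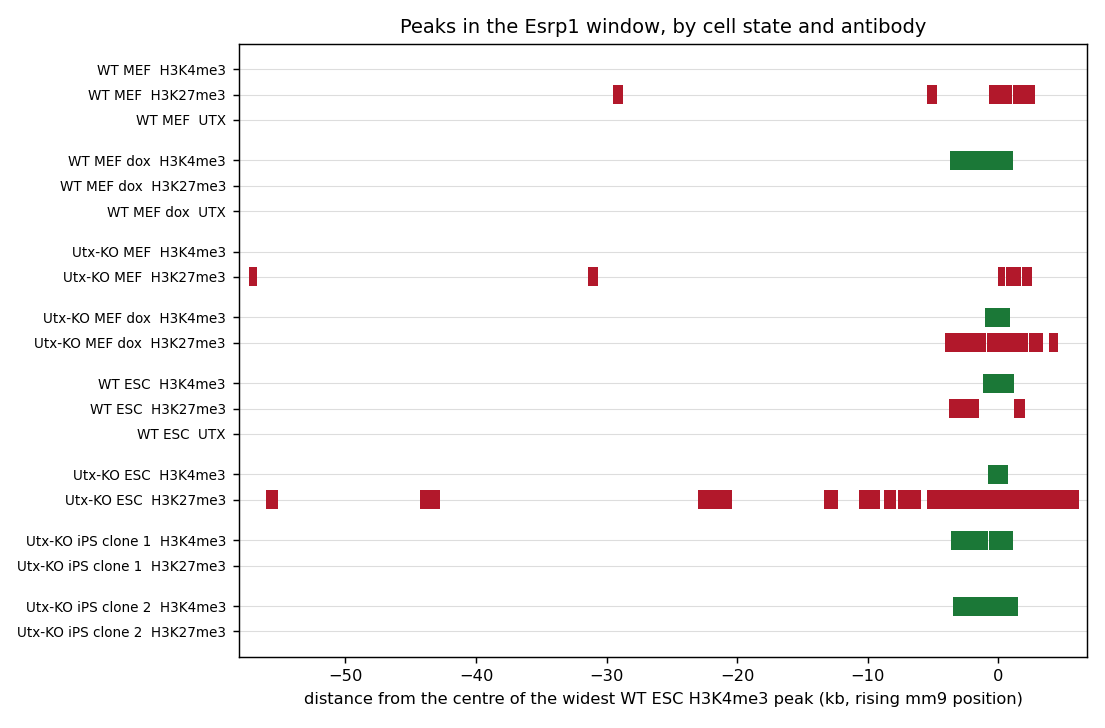
Peaks in the Esrp1 window, drawn as distance in kb from the centre of the WT ESC H3K4me3 peak; rows are the 19 lists, with H3K4me3 in green, H3K27me3 in red and UTX in blue. WT MEF with dox and both iPS clones show H3K4me3 alone, while Utx-KO MEF with dox and Utx-KO ESC show a shorter green bar (1856 and 1511 bp) within red ones.

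The presence of H3K4me3 under dox was then set against all H3K4me3 regions. In WT fibroblasts 2 of the 3 main regions, Epcam and Esrp1, had H3K4me3 with dox and not without, against 20.0% of the 33646 regions. In Utx-KO fibroblasts Esrp1 alone did, against 9.11%, since Cdh1 and Epcam already had a small peak. Of regions with H3K4me3 in WT ESC and not in WT MEF, 39.2% (2820 of 7198) had it in WT MEF with dox, as did both Epcam and Esrp1. Where WT ESC and WT MEF with dox both had H3K4me3, Utx-KO MEF with dox had it too in 92.7% of 14234 regions, so that its presence at all 3 genes was the usual case. The same held for ESC, where all 3 main regions had H3K4me3 without Utx, against 87.7% of WT ESC regions, and for the iPS clones, where all 3 had it in both clones, against 84.5%.

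The length of H3K4me3 differed more than its presence. In all 3 main regions H3K4me3 covered less in Utx-KO than in WT cells, both under dox and in ESC. WT ESC length had chosen the main region of each window, so the ESC ratios are not independent of that choice. Under dox the Utx-KO to WT ratio was 0.652 at Cdh1, 0.900 at Epcam and 0.387 at Esrp1, while the median over 15117 regions with H3K4me3 in both lists was 1.15 (quartiles 1.01 and 1.32). The ratio was lower in 2.66% of those regions than at Cdh1, in 12.7% than at Epcam and in 0.271% than at Esrp1. In ESC the ratio was 0.583 at Cdh1, 0.814 at Epcam and 0.654 at Esrp1, against a median of 0.941 over 16361 regions (quartiles 0.829 and 1.05). A lower ratio was found in 3.29%, 22.5% and 6.45% of regions, so Epcam lay just below the lower quartile of all regions there. In untreated MEF only Cdh1 had the mark in both genotypes, at a ratio of 0.586 against a median of 0.928.

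**Figure D4:**
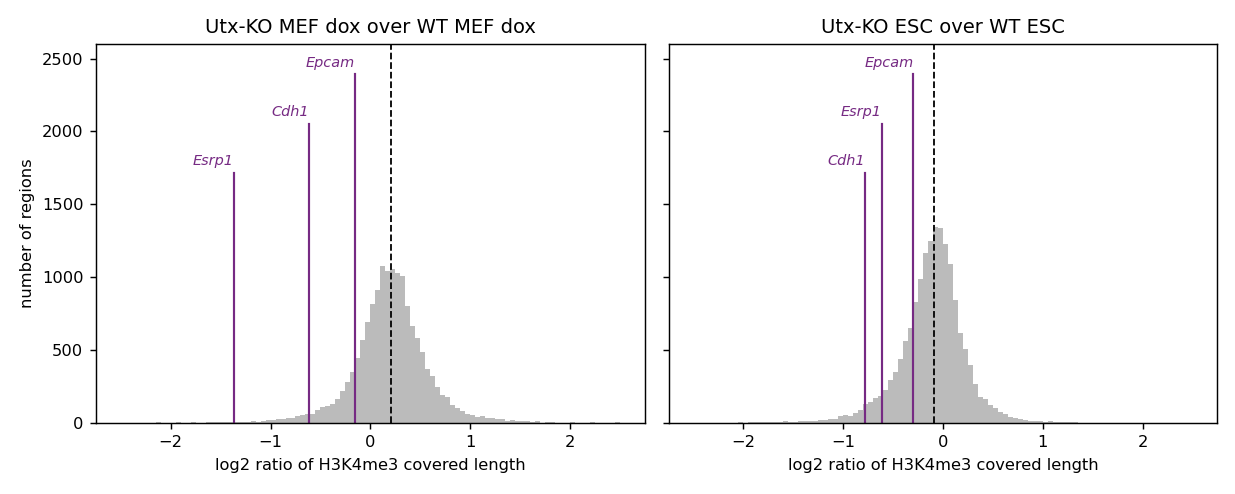
Histograms of the log2 ratio of H3K4me3 covered length, Utx-KO over WT, in regions with H3K4me3 in both lists: 15117 regions in MEF with dox (left) and 16361 in ESC (right), with more extreme ratios counted in the end bins. The dashed line is the median of all regions and purple lines are the main regions of Cdh1, Epcam and Esrp1, which all lie to the left of it.

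In the aberrant iPS clones, which lack Utx as well, H3K4me3 at Epcam and Esrp1 was longer than in WT ESC. Relative to WT ESC the ratio at Cdh1 was 0.743 in clone 1 and 1.08 in clone 2, near the medians of 0.765 and 1.00 over all regions. At Epcam it was 1.09 and 1.66. At Esrp1 it was 2.05 and 2.16, higher than 99.6% and 98.4% of regions. Esrp1 H3K4me3 in the clones (mean 4.87 ± 0.181 kb, SD, n = 2) thus had about the length seen in WT MEF with dox, 4.80 kb. Both clones had nearly empty H3K27me3 lists, with no peak at the main region of any of the 3 genes.

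H3K27me3 at the main regions was also counted against all H3K4me3 regions. In WT MEF 2 of the 3, Cdh1 and Esrp1, carried it, against 5.02% of regions, and the same 2 carried it in Utx-KO MEF, against 4.59%. Both had H3K27me3 without and not with dox in WT cells, as did 4.54% of all regions. Of the 1690 regions with H3K27me3 in WT MEF, only 9.59% had it in WT MEF with dox, a list of 938 peaks of which 2.35% scored 100 or more, so its empty windows at Cdh1 and Esrp1 were the usual case. All 3 main regions had H3K27me3 in dox-treated Utx-KO MEF and not in dox-treated WT MEF, against 6.71% of all regions. Absence from the short WT list was the usual case, since 93.7% of all H3K27me3 peaks of dox-treated Utx-KO MEF met no peak of it. Among the 15117 regions with H3K4me3 in both dox lists, 9.68% had H3K27me3 in Utx-KO MEF with dox. In ESC, 1 of the 3, Epcam, had H3K27me3 in Utx-KO and not in WT cells, against 17.8% of regions with H3K4me3 in both lists. Under dox the H3K27me3 list of WT cells (938 peaks) was shorter than that of Utx-KO cells (4335). With the Utx-KO list cut to its 938 top-scoring peaks, Cdh1 and Esrp1 had H3K27me3 in it and Epcam did not. The WT list stayed whole, so this setting could not change its empty windows. Both marks overlapped each other in 6 of the 24 pairs of a gene and a population: Cdh1 in WT MEF, all 3 genes in dox-treated Utx-KO MEF, and Epcam and Esrp1 in Utx-KO ESC. Of all H3K4me3 peaks, 1.48%, 9.33% and 25.1% met an H3K27me3 peak in these populations, in the same order.

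**Figure D5:**
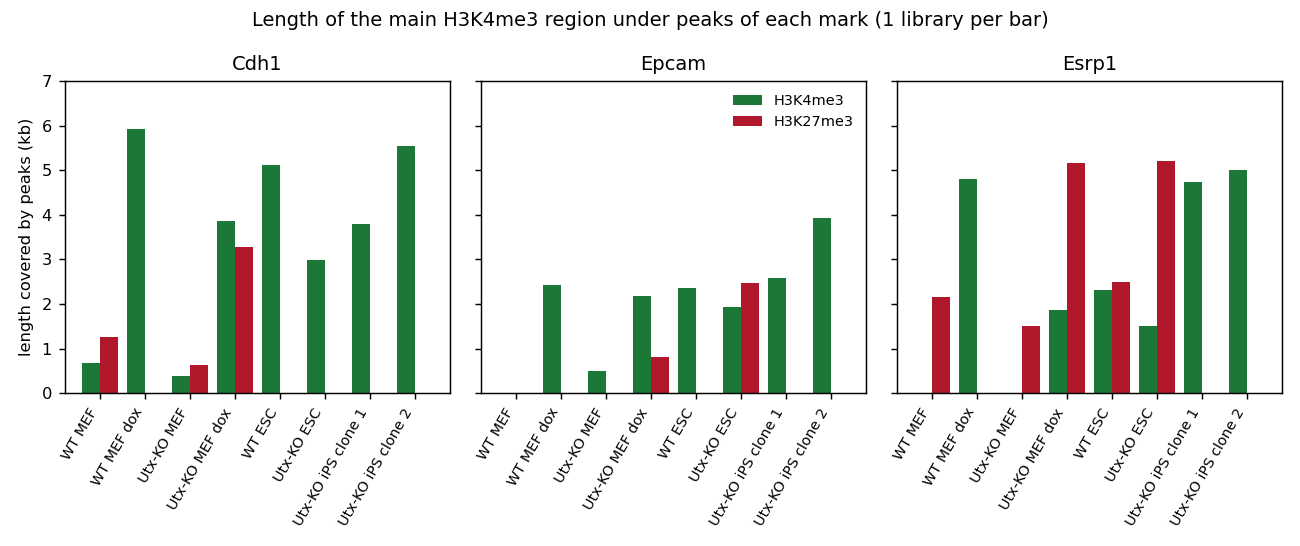
Length in kb of each main region under H3K4me3 peaks (green) and H3K27me3 peaks (red) in the 8 populations; each bar is 1 library and has no error bar. Red and green stand together at all 3 genes in Utx-KO MEF with dox, and WT MEF with dox shows green alone.

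H3K27me3 was then counted in other regions with H3K4me3 in the same lists as each gene. Esrp1 had H3K4me3 in 6 of the 8 lists, all but the untreated fibroblasts, and 1009 other regions had this pattern. Of these, 51.8% had H3K27me3 in dox-treated Utx-KO MEF, as Esrp1 did. Epcam had H3K4me3 in 7 lists, all but WT MEF, as had 613 other regions, and 26.4% of those had H3K27me3 in dox-treated Utx-KO MEF. Cdh1 had H3K4me3 in all 8 lists, and 3.50% of the 10675 other such regions had it. The share was thus highest for the pattern of Esrp1 and lowest for that of Cdh1, and most regions with the pattern of Epcam or Cdh1 had no H3K27me3 in these cells.

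The regions most like each gene were found from the log2 of covered H3K4me3 length plus 1 bp over the 8 lists, by Euclidean distance. The nearest to Esrp1 was chr19:6397239-6402532 (distance 0.62), followed by chr12:113381513-113386108 (0.85) and chr2:144154801-144159480 (0.96). All 3 had H3K27me3 in Utx-KO MEF with dox (2337, 3465 and 3928 bp) and none in WT MEF with dox, which the distance did not use. The nearest to Cdh1 was chr19:56794974-56800462 (distance 0.88), which also had 2984 bp of H3K27me3 in Utx-KO MEF with dox and none in the WT list. The remaining regions nearest to Cdh1, chr17:37078823-37085219 and chr4:155565364-155573112, had none in either. In Utx-KO ESC all 3 regions nearest to Cdh1 had H3K27me3 (5489, 2353 and 98 bp), whereas the Cdh1 main region had 0 bp. All 3 nearest to Esrp1 also had it in Utx-KO ESC (3641, 4048 and 3978 bp), as did Esrp1. The nearest to Epcam was chr2:91021585-91024886 (distance 0.54), without H3K27me3 in any list, followed by chr7:3410833-3413851, without it in either dox list, and chr10:28865848-28868664. The last had 818 bp of H3K27me3 in dox-treated Utx-KO MEF, 270 bp in dox-treated WT MEF and 763 bp in WT MEF. No gene is named for these regions, since no mm9 annotation was used.

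UTX had 1 peak in the 3 windows. It lay in WT ESC at chr8:109132827-109133651 in the Cdh1 window, 1237 bp beyond the nearest H3K4me3 peak of the same cells. Its score of 52.66, higher than 5.99% of the 5076 UTX peaks of that list, was close to the lowest score written, and it overlapped 1 other list, the H3K4me3 peaks of iPS clone 2. The WT MEF list (372 peaks) and the WT MEF list with dox (3540 peaks) had no UTX peak at any of the 3 genes. Lists of this length leave most of the 33646 H3K4me3 regions without a UTX peak. The share of regions with one was not computed, so these absences are not read as particular to the 3 genes. No UTX list of Utx-KO cells was among the files used.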

How the data were processed

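Chromatin immunoprecipitation was sequenced in 27 samples, of which the 19 immunoprecipitates had a peak list and the 8 whole-cell extracts were not analysed here. Per the submitters' processing notes, CASAVA 1.8.2, Bowtie 0.12.5, MACS 1.4.1 and mm9 were used; their settings, and the controls, are not given in the sources used here. From each sample the authors deposited 1 list, with a score per peak that behaves as the MACS score and rises with depth as well as enrichment. Groups were taken from sample titles.

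Starts were made 1-based, and 1 peak off the numbered chromosomes, X and Y was dropped. An overlap needed 1 bp. Covered length is the union of peaks inside a window or region. Shares of regions have exact (Clopper-Pearson) 95% intervals, which cover counting error only; neighbouring regions are not independent. No test was run, since every population had 1 library. The genes, windows and lists were chosen with earlier results of these data known. The 3 regions nearest to each gene were named by a rule of distance. Other epithelial genes and marker genes could not be placed, because the gene table is for GRCm38, so only their promoter letters were used. Alternatives were a score of at least 100, 50% of a peak inside the window, equal numbers of top peaks, windows narrowed by 5000 bp, and each iPS clone left out. The overlap code was tested on simulated data and against bedtools 2.31.1, with every length recovered in 4 of 4 pairs of lists. Python 3.11.15, numpy 2.4.6, scipy 1.17.1 and matplotlib 3.10.9 were used.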

Additional observations from a re-analysis of the deposited data

Results flagged for a closer look

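Several lengths under peaks differed in opposite directions between 2 settings of the same contrast, each with 1 library per side, and none of these differences was tested. With dox, H3K27me3 in the Cdh1 window differed by -1267 bp in WT MEF and by 2649 bp in Utx-KO MEF, relative to the cells without dox. In the Esrp1 window the corresponding differences were -5035 bp in WT MEF and 4164 bp in Utx-KO MEF. The WT MEF list with dox held 938 peaks and that of Utx-KO MEF with dox 4335. With equal numbers of top-scoring peaks from both lists compared, the Esrp1 difference in WT MEF shrank to -1694 bp, while that of Cdh1 was again -1267 bp. In Utx-KO MEF the differences were then 3277 bp at Cdh1 and 5341 bp at Esrp1.

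Utx-KO minus WT, H3K27me3 in the Cdh1 window differed by -639 bp in untreated MEF and by 3277 bp in MEF with dox. In the Esrp1 window the values were -1114 bp in untreated MEF, 8085 bp in MEF with dox and 19012 bp in ESC. With equal numbers of top-scoring peaks these Esrp1 values became -2291, 4778 and 8534 bp, and the untreated Cdh1 value became -1267 bp. The ESC value at Esrp1 was 11124 bp when scores had to reach 100. H3K4me3 in the Epcam window differed by 498 bp in untreated MEF, -243 bp in MEF with dox and -439 bp in ESC. The first of these Epcam values is the single small peak of Utx-KO MEF.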

How the results depend on the processing

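Each comparison was summarised as the number of the 3 genes with the mark in the first population only minus the number with it in the second only. Of 62 such values and UTX or double-mark counts under the alternatives, 53 were unchanged or, for the double-mark count, within 1.5 times. The other 9 moved and none turned sign. All peaks of the 3 windows lay wholly inside them, so the setting on the part of a peak inside the window could change nothing. Its values are among the unchanged ones, which therefore overstate how far the counts were tested. All H3K4me3 counts were unchanged. For H3K27me3, Utx-KO MEF with dox against WT MEF with dox was 3 and became 2 when scores had to reach 100 and 2 with equal numbers of top peaks, in both cases without Epcam. Utx-KO MEF with dox against Utx-KO MEF was 1 and became 0 and 2. With equal numbers, Utx-KO MEF against WT MEF moved from 0 to -1, Utx-KO ESC against WT ESC from 1 to 0 and the iPS clones against WT ESC from -1 to 0. Leaving out a clone gave 0 (clone 1 left out) to -1 for the last. The single UTX peak scored under 100, so that stricter count was 0. Of 183 recomputed lengths of single genes and background shares, 162 were judged unchanged, 18 moved and 3 turned sign. The unchanged ones again include the lengths under the setting that could change nothing. With equal numbers, H3K27me3 length at Esrp1 moved from -5035 to -1694 bp for WT MEF with minus without dox, and Utx-KO minus WT from -1114 to -2291 bp in MEF, 8085 to 4778 bp under dox and 19012 to 8534 bp in ESC (11124 bp when scores had to reach 100). Those of Epcam, Utx-KO minus WT under dox and in ESC, became 0. The 3 that turned sign were of 1 comparison: H3K4me3 length in the Cdh1 window, iPS clones minus WT ESC, turned to -884 bp when scores had to reach 100 and -1860 bp with equal numbers; it was 5714 bp without clone 1 and -3090 bp without clone 2. The cause was not tested. No paired analysis was possible because the only replicate numbers are those of the iPS clones. Depth is unknown for every list, and the H3K27me3 lists of WT MEF with dox and both iPS clones are too short for an empty window to show absence.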
